A study of Mus musculus with 4 samples.

Results

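The regions described here are H3K4me3 peaks whose length differed strongly between Sun knockout and wild-type mouse peritoneal macrophages. Macrophages drawn to the peritoneum by thioglycollate broth were taken from C57BL/6 mice aged 8 weeks and cultured in medium with 10% serum. ChIP-seq (immunoprecipitation of marked chromatin followed by sequencing) with antibody ab8580 against H3K4me3 gave 1 library from cells with the genotype Sun-/- (the knockout) and 1 from wild-type cells. Antibody ab8898 against H3K9me3 gave 1 further library per genotype. The labels give the genotype only as Sun-/-, without the allele, the full gene name or the number of mice behind a library. Members were chosen by peak length and tag number in the H3K4me3 lists. A pair was formed by a knockout and a wild-type H3K4me3 peak that overlapped each other and no other peak of the other list, which gave 21273 pairs from 28505 knockout and 31398 wild-type peaks. Of these, 13659 held at least 100 tags (reads, at most 1 kept per position) in 1 of the 2 peaks and are called eligible. A pair was widened where the knockout peak was at least 1.5 times as long as its wild-type partner, and narrowed where it was at most 0.67 times as long. There were 306 widened and 1629 narrowed pairs, 1935 of 13659 in all. Lengths, tags, densities and edges below therefore describe the choice and are no test of it. With 1 library per genotype no difference has a replicate check and no p-value was computed, and the 95% intervals given cover the error of counting and nothing else.

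H3K4me3 is a histone mark written by the SET1 and MLL methyltransferase complexes at the promoters of active and poised genes. It usually begins at the nucleosome next to the transcription start and spreads into the first part of the gene, and the length of the marked stretch is known to grow with transcription and to be large at genes that define a cell type. A macrophage is a phagocyte that senses microbes through Toll-like and cytosolic receptors, answers with NF-kB and interferon programmes, and digests what it takes up in lysosomes. As a check of the labelled cell type, all 15 macrophage markers examined had an H3K4me3 peak within 1000 bp of the gene in the knockout and 14 of 15 in the wild type, where Msr1, a scavenger receptor gene, had none.

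Promoters of selected members are shown first. Sequences run from 250 bases before to 50 after the start, 5′ to 3′ on the gene's strand, and were taken from RefSeq on build GRCm38.p6, the assembly that mm10 corresponds to. Capitals mark every match to 1 of 6 motifs searched on both strands, which were GGGCGG (the GC box), TGANTCA (AP-1), TGACGTCA (CRE), GGAAGTG (ETS), an interferon response motif (GAAA followed after 2 bases by GAAA) and a loose NF-kB form (GGGA followed after 4 bases by CC). The first 3 belong to the widened interferon genes with the highest length ratios among those with a listed start, a choice made with their values known, and the start lay within both peaks.
Oasl1 (chr5:114922990-114923289, plus strand): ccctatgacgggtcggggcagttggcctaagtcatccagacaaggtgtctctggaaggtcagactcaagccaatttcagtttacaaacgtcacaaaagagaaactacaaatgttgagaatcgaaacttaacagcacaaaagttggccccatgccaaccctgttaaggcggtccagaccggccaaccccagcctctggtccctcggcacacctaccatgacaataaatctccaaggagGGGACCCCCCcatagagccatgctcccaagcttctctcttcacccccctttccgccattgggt
Rsad2 (chr12:26456403-26456702, minus strand): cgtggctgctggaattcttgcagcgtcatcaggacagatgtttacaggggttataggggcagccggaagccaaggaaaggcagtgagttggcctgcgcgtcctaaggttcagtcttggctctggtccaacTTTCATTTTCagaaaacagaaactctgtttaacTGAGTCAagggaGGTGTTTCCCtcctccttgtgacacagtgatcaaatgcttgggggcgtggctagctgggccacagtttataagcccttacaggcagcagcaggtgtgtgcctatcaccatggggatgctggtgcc
Cmpk2 (chr12:26468965-26469264, plus strand): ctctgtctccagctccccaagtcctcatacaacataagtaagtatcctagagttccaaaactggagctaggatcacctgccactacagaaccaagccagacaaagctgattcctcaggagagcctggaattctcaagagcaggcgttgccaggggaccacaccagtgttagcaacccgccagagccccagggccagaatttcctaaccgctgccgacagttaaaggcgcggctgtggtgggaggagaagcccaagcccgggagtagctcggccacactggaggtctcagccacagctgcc

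The next 6 are the tag-rich members whose listed gene start lay in the peak of 1 genotype alone. Usp3, a deubiquitinase gene, Rnf31, which encodes the catalytic subunit of the linear ubiquitin ligase, and Neu1, a lysosomal sialidase gene, belong to widened pairs. Smad6, an inhibitor of BMP signalling, Ehbp1l1 and the retinal reductase gene Dhrs3 belong to narrowed pairs.
Usp3 (chr9:66593066-66593365, minus strand): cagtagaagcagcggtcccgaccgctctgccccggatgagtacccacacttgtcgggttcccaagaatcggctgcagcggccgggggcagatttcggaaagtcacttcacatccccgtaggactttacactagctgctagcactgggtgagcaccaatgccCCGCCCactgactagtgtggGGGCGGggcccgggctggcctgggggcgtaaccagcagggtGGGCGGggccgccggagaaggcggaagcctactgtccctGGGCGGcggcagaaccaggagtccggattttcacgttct
Rnf31 (chr14:55591492-55591791, plus strand): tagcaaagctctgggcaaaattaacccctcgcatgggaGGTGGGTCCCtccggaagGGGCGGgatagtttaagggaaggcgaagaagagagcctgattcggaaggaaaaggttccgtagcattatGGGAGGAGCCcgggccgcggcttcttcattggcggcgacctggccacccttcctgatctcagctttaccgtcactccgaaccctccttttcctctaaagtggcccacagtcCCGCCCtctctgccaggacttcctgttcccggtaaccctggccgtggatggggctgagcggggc
Neu1 (chr17:34931003-34931302, plus strand): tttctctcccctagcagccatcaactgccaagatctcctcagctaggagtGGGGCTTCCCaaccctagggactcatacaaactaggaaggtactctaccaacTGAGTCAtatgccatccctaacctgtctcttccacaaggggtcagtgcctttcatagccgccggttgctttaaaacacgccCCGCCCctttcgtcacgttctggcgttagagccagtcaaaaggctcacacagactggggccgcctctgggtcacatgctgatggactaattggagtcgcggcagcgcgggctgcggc
Smad6 (chr9:64022010-64022309, minus strand): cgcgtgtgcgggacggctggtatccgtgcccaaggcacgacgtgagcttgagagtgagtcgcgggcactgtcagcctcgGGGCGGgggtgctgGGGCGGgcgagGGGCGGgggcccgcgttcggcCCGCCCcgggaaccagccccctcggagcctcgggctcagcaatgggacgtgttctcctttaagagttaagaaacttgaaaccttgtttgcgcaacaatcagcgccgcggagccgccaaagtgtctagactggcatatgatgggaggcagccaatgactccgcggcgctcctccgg
Ehbp1l1 (chr19:5726230-5726529, minus strand): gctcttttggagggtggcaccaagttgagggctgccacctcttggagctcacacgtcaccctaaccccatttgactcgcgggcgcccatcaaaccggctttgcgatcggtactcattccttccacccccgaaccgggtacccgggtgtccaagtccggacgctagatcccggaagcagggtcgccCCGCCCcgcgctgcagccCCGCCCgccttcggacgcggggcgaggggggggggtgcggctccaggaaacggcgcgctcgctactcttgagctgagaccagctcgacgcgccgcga
Dhrs3 (chr4:144892577-144892876, plus strand): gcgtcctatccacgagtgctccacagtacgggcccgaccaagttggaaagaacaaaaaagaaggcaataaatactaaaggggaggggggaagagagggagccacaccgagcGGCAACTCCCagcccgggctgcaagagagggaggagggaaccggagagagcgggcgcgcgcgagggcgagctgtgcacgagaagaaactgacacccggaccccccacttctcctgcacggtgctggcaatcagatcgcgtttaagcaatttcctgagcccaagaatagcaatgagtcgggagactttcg

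At Usp3 the wild-type peak stopped 10 bp short of the start and the knockout peak ran past it, with 458 tags over 3329 bp in the knockout and 510 tags over 1736 bp in the wild type. At Rnf31, with 342 tags in the knockout and 340 in the wild type, and at Neu1, with 307 tags in the knockout and 360 in the wild type, the longer knockout peak began 20 and 44 bp beyond the start that the wild-type peak still touched. These upstream differences were below the 200 bp taken further on as a moved edge. At Smad6 the start lay 10 bp outside the knockout peak. At Ehbp1l1 the start shown lay 1812 bp outside, with 297 tags over 1826 bp in the knockout and 1223 tags over 6488 bp in the wild type. At Dhrs3 the start shown lay 360 bp outside, with 418 tags over 3445 bp in the knockout and 1023 tags over 7126 bp in the wild type. Ehbp1l1 has 2 and Dhrs3 has 3 listed starts in its region, all of them in the wild-type peak alone. In this window Cmpk2 matched 0 of the motifs and Oasl1 had a single match to the loose NF-kB form, while Rsad2 matched the interferon response, AP-1 and loose NF-kB motifs.

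Peaks were mostly of similar length in both genotypes, and more of the remainder were shorter in the knockout. The median length ratio, knockout over wild type, was 0.935 over the eligible pairs, with 4108 pairs longer and 9531 shorter in the knockout. Widened pairs made up 2.24% and narrowed pairs 11.9% of the eligible pairs. At least a doubling was seen in 68 pairs, and a ratio of at most 0.5 in 403. The knockout library was smaller, with 26748289 tags after duplicate removal against 29681491 in the wild type, and the part of depth in the excess of narrowed peaks was not tested. With each ratio divided by the median ratio, 422 pairs were widened and 1202 narrowed. The number of widened pairs also followed the tag minimum, with 548 at 50 tags and 157 at 200.

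**Figure D1:**
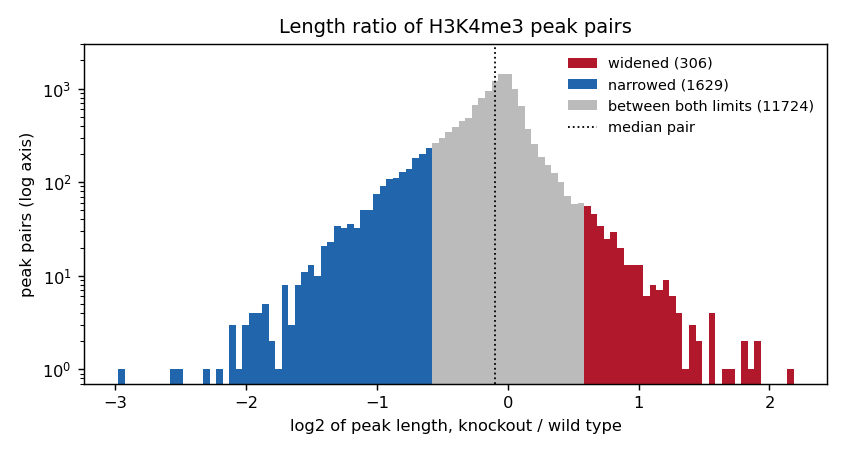
Distribution of the log2 length ratio, knockout over wild type, over 13659 eligible H3K4me3 peak pairs. The horizontal axis gives the log2 ratio and the vertical axis the number of pairs per bin on a log axis; red bars are the 306 widened pairs, blue bars the 1629 narrowed pairs, and the dotted line is the median ratio of 0.935.

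The limits fell within a continuous distribution. Just inside the upper limit stood Riok3, a kinase gene, with 1423 bp in the knockout and 948 bp in the wild type, and Irf2bp2, which encodes a co-repressor of IRF2, with 5378 bp in the knockout and 3584 bp in the wild type. Just outside it, at a ratio of 1.499, stood Fam234a with 1506 bp in the knockout and 1005 bp in the wild type, and Ncoa4, a ferritin autophagy receptor gene, with 1560 bp in the knockout and 1041 bp in the wild type. The last 2 narrowed pairs lay outside protein-coding genes, one with 1011 bp in the knockout and 1509 bp in the wild type and one with 1351 bp in the knockout and 2017 bp in the wild type. Just outside the lower limit stood Chrm3, a muscarinic receptor gene, with 1314 bp in the knockout and 1961 bp in the wild type, and the shared peak of Acot8 and Zswim3, with 843 bp in the knockout and 1258 bp in the wild type. Pairs with few tags passed the limits more often. Among 3420 pairs with 124 to 280 summed tags 3.596% were widened and 16.7% narrowed, and among 3406 pairs with 673 or more 1.94% were widened and 8.31% narrowed.

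Widened peaks were longer and flatter in the knockout. Their median length was 2348 bp in the knockout and 1271 bp in the wild type, their median tag number 199 in the knockout and 146 in the wild type, and their median density 85.7 tags per kb in the knockout and 120 tags per kb in the wild type. With tags divided by each library's filtered total, 268 of 306 widened pairs (87.6%) held more tags in the knockout, against 9.91% of all eligible pairs. The median log2 ratio of scaled tags was 0.48 in widened pairs and -0.35 over all eligible pairs. In scaled density the median log2 ratio was -0.35 in widened pairs and -0.20 over all eligible pairs, so the added length was not matched by an equal gain in tags. The authors' peak score, 10 times the negative log10 of the peak's p-value, had a median of 188.05 in the knockout and 284.18 in the wild type. Over all eligible pairs it was 403.68 in the knockout and 594.27 in the wild type. Median fold enrichment was 5.785 in the knockout and 6.555 in the wild type for widened pairs. Over all eligible pairs median fold enrichment was 8.82 in the knockout and 9.46 in the wild type. The score was higher in the knockout in 25.2% of widened pairs and 7.23% of all eligible pairs.

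Narrowed peaks lost tags about in proportion to their length. Their median length was 1088 bp in the knockout and 1982 bp in the wild type, with a median of 129 tags in the knockout and 245 in the wild type, and a median density of 115 tags per kb in the knockout and 123 tags per kb in the wild type. All 1629 held fewer scaled tags in the knockout, with a median log2 ratio of -0.76. Their scaled density was on the other side of the eligible pairs, with a median log2 ratio of 0.08, and 62.9% were denser in the knockout, against 19.05% of all eligible pairs. The median distance between the 2 summits of a pair was 44.5 bp in widened, 24 bp in narrowed and 27 bp in all eligible pairs, and the upper quartile was 236.25 bp in widened, 92 bp in narrowed and 114 bp in all eligible pairs.

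**Figure D2:**
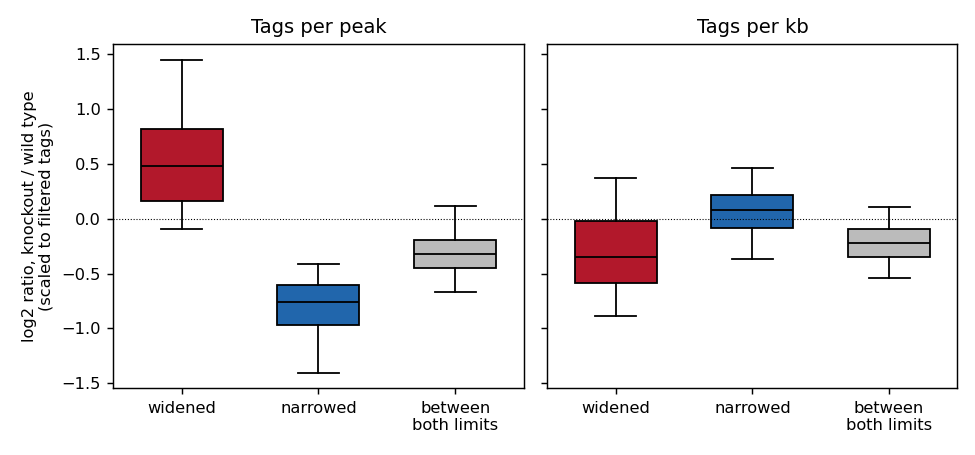
Log2 ratio, knockout over wild type, of tags per peak (left) and of tags per kb (right), relative to each library's filtered total, in widened, narrowed and remaining eligible pairs. Boxes show the median and quartiles and whiskers the 5th to 95th percentile; widened pairs had medians of 0.48 and -0.35, and narrowed pairs -0.76 and 0.08.

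Most members differed at 1 end of the peak. An edge was counted as moved where it differed by at least 200 bp between the genotypes. Of the widened pairs 234 had 1 moved edge and 72 had both, and of the narrowed pairs 1204 had 1, 422 had both and 3 had neither. Over all eligible pairs 38.6% had 1 moved edge and 7.34% had both. The shorter peak lay wholly inside the longer one in 62.75% of widened and 76.0% of narrowed pairs, and in 56.25% of all eligible pairs. A slide, with both edges moved in the same direction along the chromosome, was seen in 18 widened pairs (5.88%) and 23 narrowed pairs (1.41%), against 2.53% of all eligible pairs.

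Where the strand of the gene was known, the downstream end differed more often than the upstream end, and more markedly so in widened pairs. Pairs were oriented by the RefSeq gene starts they held, if all lay on 1 strand, which was so for 120 widened and 901 narrowed pairs. In widened pairs the downstream edge reached a median of 783.5 bp further out in the knockout and the upstream edge 51.5 bp further, and 80 pairs lengthened by at least 200 bp downstream only, 20 upstream only and 20 at both ends. In narrowed pairs the knockout edge lay at a median of -581 bp downstream and -204 bp upstream relative to the wild-type edge, where a negative value means further in. There 443 pairs shortened downstream only, 225 upstream only and 230 at both ends. Over all 7559 oriented eligible pairs the medians were -49 bp downstream and -25 bp upstream.

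**Figure D3:**
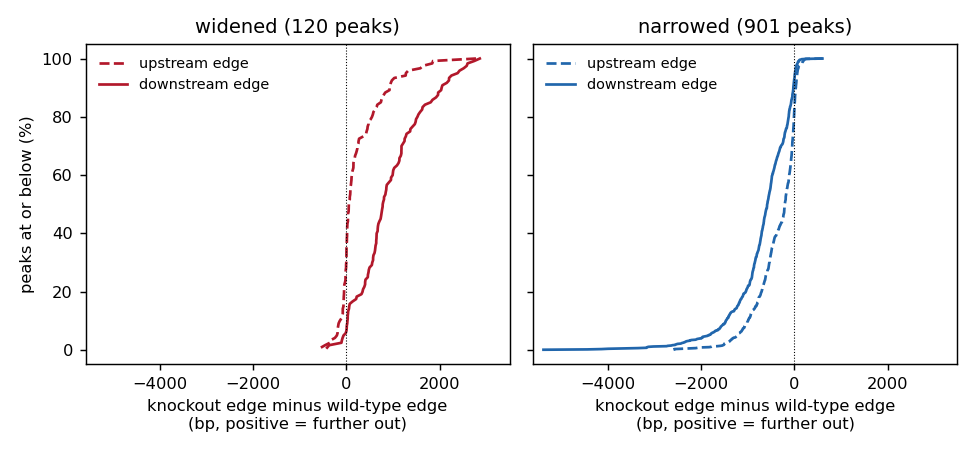
Cumulative share of oriented widened pairs (120, left) and narrowed pairs (901, right) against the shift of the knockout edge relative to the wild-type edge in bp, positive where the knockout peak reached further out. Solid lines are the downstream edge, with medians of 783.5 and -581 bp, and dashed lines the upstream edge, with medians of 51.5 and -204 bp.

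Position was not used in the choice of the members and differed between the groups. Of the 306 widened pairs 86.6% lay within 1000 bp of a protein-coding gene, against 91.8% of narrowed and 92.65% of eligible pairs. A listed gene start lay within 139 of 302 widened pairs on chromosomes with promoter entries (46.0%, interval 40.3 to 51.8%), 1013 of 1584 narrowed pairs (63.95%, 61.5 to 66.3%) and 65.9% of eligible pairs. Widened pairs without a start lay a median of 13887 bp from the nearest listed one, close to the 14709.5 bp of eligible pairs without a start. Which peak alone held a start follows in part from the length rule, since the longer peak covers more bases, and is given as a description. Among pairs that held a start, narrowed pairs had it in the knockout peak alone in 21 of 1013 (2.07%) and in the wild-type peak alone in 165 (16.3%). Among 8762 eligible pairs these numbers were 179 for the knockout peak alone and 527 for the wild-type peak alone. In widened pairs the start was in the knockout peak alone in 11 of 139 and in the wild-type peak alone in 9. The share that held a start depended on the tag minimum, since it was 32.5% in widened pairs with at least 50 tags and 61.1% with at least 200.

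The members were spread over the chromosomes. Leaving out chromosome Y, which had 2 eligible pairs, the widened share was lowest on chromosome 16, with 0.935% of its eligible pairs, and highest on chromosome 11, with 3.32%. The narrowed share lay between 10.25% on chromosome 9 and 13.9% on chromosome 13.

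H3K9me3, a mark of silenced chromatin, was measured in libraries that took no part in the choice. An H3K9me3 peak of either genotype overlapped 30.1% of widened pairs (interval 24.98 to 35.5%), 20.4% of narrowed pairs (18.45 to 22.4%) and 29.7% of eligible pairs (28.9 to 30.5%). By library, 26.5% of widened pairs overlapped a peak in the knockout and 17.65% in the wild type, and 15.5% of narrowed pairs did so in the knockout and 12.4% in the wild type. The same order was seen over all eligible pairs, with 23.3% in the knockout and 18.4% in the wild type. With an H3K9me3 score of at least 100 the shares were 11.4% in widened and 5.59% in narrowed pairs. The share over all eligible pairs was not computed at that score, so neither value can be set against it. Several leading widened regions stood on strong H3K9me3 signal, which is given with them below.

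The promoters within widened pairs were poorer in CpG than those of the other pairs. The median ratio of observed to expected CpG was 0.697 over 180 promoters in widened pairs, 0.788 over 1282 in narrowed pairs and 0.787 over 11504 in eligible pairs, while all 32851 promoters of the table had 0.384. GC content was similar, with medians of 62.3% in widened, 61.0% in narrowed and 63.3% in eligible pairs. The GC box was found in 60.6% of promoters in widened, 67.55% in narrowed and 69.3% in eligible pairs, and in 35.7% of all. The interferon response motif was found in 12 of 180 promoters in widened pairs (6.67%), 34 of 1282 in narrowed pairs (2.65%), 2.59% in eligible pairs and 3.44% of all. The AP-1 motif was found in 7.22% of promoters in widened, 4.52% in narrowed and 4.20% in eligible pairs, and in 7.81% of all, and the remaining 3 motifs were within 3 percentage points of their share in eligible pairs in both groups. Between 0.809% and 7.36% of the matches of a motif shared a base with a match of another motif. A match is a stretch of letters and not a measured binding site.

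Gene lists were then set beside all protein-coding genes. They were chosen with earlier results of these data known, so their shares and their order are descriptions and no test. Of 12004 protein-coding genes with an eligible pair within 1000 bp, 286 (2.38%) had a widened pair and 1634 (13.6%) a narrowed pair, and 26 had one of each. Type I interferon and antiviral genes had the highest widened share among the lists with at least 10 such genes. Of 36 genes 29 had an eligible pair, 7 (24.1%) had a widened and 1 (3.45%) a narrowed pair. The median length ratio of the list was 1.05, against 0.935 over all these genes, and 20 of the 29 had a longer peak in the knockout, against 3470 of 12004. With at least 50% overlap asked of both peaks, 3 interferon genes were widened, and with limits of 2 and 0.5 there were 4. Over all pairs the widened number went from 306 to 227 and to 68 at these settings. The matching shares of all protein-coding genes were not computed.

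Oasl1, an antiviral gene of the oligoadenylate synthetase family, had 239 tags over 2538 bp in the knockout and 72 tags over 1059 bp in the wild type. The scaled log2 tag ratio was 1.88 (interval 1.495 to 2.28), and the gain lay downstream, where the peak ended 2378 bp from the gene start in the knockout and 693 bp in the wild type. Zbp1, a sensor of nucleic acids in the Z form, had 347 tags over 3388 bp in the knockout and 148 tags over 1519 bp in the wild type, a log2 ratio of 1.38 (1.098 to 1.67). Its 2 edges shifted by 2684 and -815 bp, where a negative value means further in, so the peaks overlapped in part. Oas3, which makes the second messenger that activates RNase L, had 263 tags in the knockout and 146 in the wild type, a log2 ratio of 0.999 (0.702 to 1.301), with 2583 bp in the knockout and 1635 bp in the wild type. Rsad2, which encodes the antiviral enzyme viperin, had 217 tags over 2675 bp in the knockout and 135 tags over 1208 bp in the wild type. At these 4 genes the knockout peak was both longer and richer in tags.

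At the other 3 interferon genes the knockout peak was longer, while the interval of the tag ratio included 0. These 3 intervals lay above -0.35, the median log2 ratio over all eligible pairs. Cmpk2, the neighbour of Rsad2 and a mitochondrial nucleotide kinase gene, had 353 tags over 3319 bp in the knockout and 378 tags over 1636 bp in the wild type, a log2 ratio of 0.05 (-0.162 to 0.265). Ifnar1, which encodes a chain of the type I interferon receptor, had 282 tags over 2404 bp in the knockout and 283 over 1486 bp in the wild type. Irf9, the DNA-binding part of the interferon-activated factor ISGF3, had 113 tags over 1651 bp in the knockout and 95 over 935 bp in the wild type, in a peak that also touched Rnf31. The exception was Irf5, a transcription factor of Toll-like receptor signalling, whose peak shortened. It had 645 tags over 3030 bp in the knockout and 1175 tags over 5947 bp in the wild type, a log2 ratio of -0.72 (-0.856 to -0.575), with a downstream edge shift of -2741 bp.

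Pattern recognition receptors and their signalling genes were on both sides, with 6 of 33 widened (18.2%) and 6 narrowed (18.2%). Over all protein-coding genes these shares were 2.38% and 13.6%. Nod2, a cytosolic sensor of bacterial peptidoglycan, had 492 tags over 4347 bp in the knockout and 208 tags over 1799 bp in the wild type, a log2 ratio of 1.39 (1.155 to 1.63). Irak2, a kinase of the Toll-like receptor pathway, had 153 tags over 2239 bp in the knockout and 99 tags over 757 bp in the wild type. Tlr9, the receptor for unmethylated CpG DNA, had 179 tags over 2567 bp in the knockout and 147 tags over 1515 bp in the wild type. These 3 peaks gained tags with length. At 2 others tags were similar over different lengths. Cgas, the cytosolic DNA sensor, had 308 tags over 2389 bp in the knockout and 303 tags over 1449 bp in the wild type. Irak3, an inhibitor of the pathway, had 233 tags over 2300 bp in the knockout and 269 tags over 1457 bp in the wild type. With limits of 2 and 0.5, 2 genes of this list were widened, while the widened number over all pairs went from 306 to 68.

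On the narrowed side, Tlr3, the receptor for double-stranded RNA, had 34 tags over 577 bp in the knockout and 109 tags over 1201 bp in the wild type. Tlr5, the flagellin receptor, had 119 tags over 1535 bp in the knockout and 221 tags over 2532 bp in the wild type. The peaks of Mavs, the adaptor of the RNA helicase sensors, of the kinase gene Chuk, and of Irak4 with its neighbour Pus7l held 141 to 181 tags in the knockout and 279 to 325 tags in the wild type. All 5 held fewer tags in the knockout, as did every narrowed pair. Nlrp3, which encodes an inflammasome sensor, was in both groups. Its peak at the listed start had 72 tags over 1006 bp in the knockout and 149 tags over 2024 bp in the wild type, and the knockout peak did not include that start. A second peak further along the gene had 111 tags over 1841 bp in the knockout and 65 tags over 1051 bp in the wild type.

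Of the 22 genes with an eligible pair on the list of inflammatory cytokines and NF-kB targets, 3 were widened (13.6%) and 4 narrowed (18.2%). Over all protein-coding genes 2.38% were widened and 13.6% narrowed. The longest was Nfkb2, which encodes the precursor of an NF-kB subunit. It had 865 tags over 7562 bp in the knockout and 645 tags over 3694 bp in the wild type, a log2 ratio of 0.57 (0.425 to 0.723), and its downstream end lay 5964 bp from a gene start in the knockout and 2359 bp in the wild type. Traf1, an adaptor of TNF receptors, had 203 tags in the knockout and 147 in the wild type. Nos2, the inducible nitric oxide synthase gene, had 107 tags in the knockout and 89 in the wild type. The interval of its log2 ratio, -0.003 to 0.838, included 0 and lay above the median of -0.35 over all eligible pairs. Among the narrowed genes, the peak counted for both chemokine genes Ccl3 and Ccl4 had 33 tags over 587 bp in the knockout and 155 tags over 1947 bp in the wild type, and the start of Ccl3 lay in the wild-type peak alone. Nfkbiz, which encodes a nuclear IkB protein, had 242 tags in the knockout and 492 in the wild type, and the chemokine gene Cxcl2 had 74 tags in the knockout and 120 in the wild type.

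Of 11 alternative activation genes with an eligible pair, 2 were widened (18.2%, against 2.38% of all protein-coding genes), Il4ra and the transglutaminase gene Tgm2. Tgm2 had 491 tags over 4787 bp in the knockout and 390 tags over 2087 bp in the wild type, with 2703 bp added at 1 end. The mannose receptor gene Mrc1 was the 1 narrowed gene (9.09%, against 13.6% of all protein-coding genes). It had 129 tags over 1876 bp in the knockout and 271 tags over 3294 bp in the wild type.

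**Figure D4:**
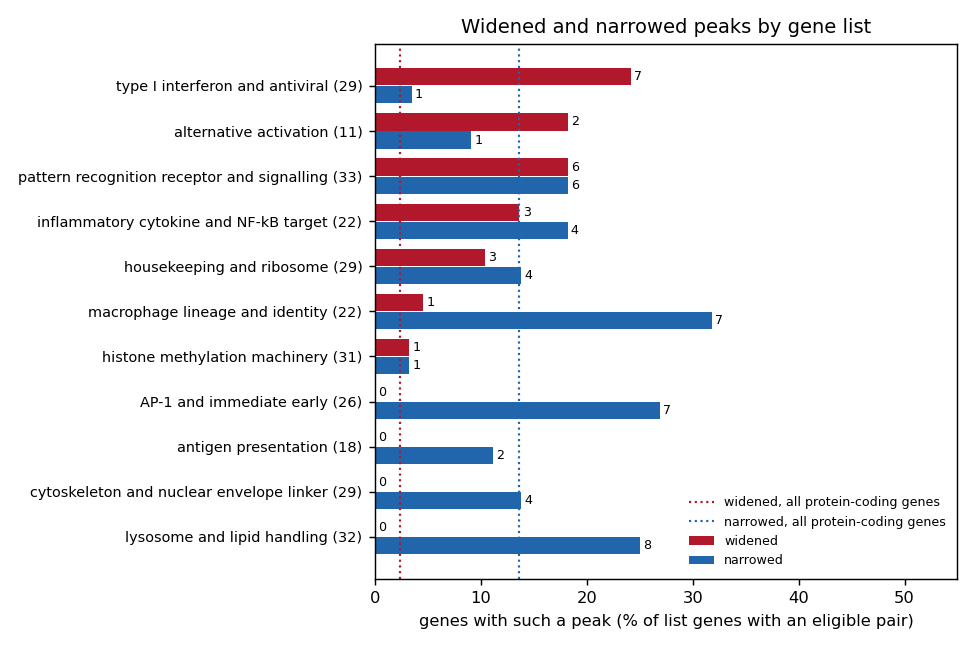
Share of the genes of each list that had a widened (red) or narrowed (blue) pair, as a percentage of the list genes with an eligible pair (number in brackets), for the lists with at least 10 such genes; numbers beside the bars count the genes. Dotted lines mark the shares over all protein-coding genes, 2.38% and 13.6%. The interferon list reached 24.1% widened and the housekeeping list 10.3%, while the macrophage list reached 31.8% narrowed. Lists were chosen with earlier results of these data known.

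Of 22 macrophage lineage genes with an eligible pair, 7 (31.8%) were narrowed, against 13.6% of all protein-coding genes, and 1 (4.55%) was widened, against 2.38%. The median length ratio was 0.820. The shorter list of macrophage markers used above to check the cell type did not share this, with 1 of 11 narrowed (9.09%, Cd68) and 0 widened, and a median length ratio of 0.933. Lgals3, which encodes the lectin galectin-3 (known as the macrophage marker Mac-2), had 195 tags over 1478 bp in the knockout and 376 tags over 3311 bp in the wild type, a log2 ratio of -0.80 (-1.05 to -0.54). Cd68, an endosomal glycoprotein gene, had 256 tags over 2253 bp in the knockout and 433 tags over 3629 bp in the wild type. In both, the upstream edges nearly coincided and the downstream edge shifted, by -1790 bp at Lgals3 and -1391 bp at Cd68. Itgax, the integrin CD11c gene, had 74 tags in the knockout and 191 in the wild type, also with a nearly fixed upstream edge. Tyrobp, an adaptor of activating receptors, the transcription factor gene Bhlhe40, and Nr1h3, the liver X receptor alpha gene, whose peak also reaches the lysosomal phosphatase gene Acp2, held 139 to 506 tags in the knockout and 270 to 917 tags in the wild type. With limits of 2 and 0.5, 3 genes of the list were narrowed, and with at least 50% overlap 4. Over all pairs the narrowed number went from 1629 to 403 and to 1186 at these settings.

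Ctsb, a lysosomal cysteine protease gene on the macrophage list, was in both groups. Its larger peak had 369 tags over 2911 bp in the knockout and 804 tags over 6000 bp in the wild type. A smaller peak had 122 tags over 1460 bp in the knockout and 107 tags over 890 bp in the wild type. The 2 peaks of this gene therefore differed in direction of length.

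Lysosome and lipid handling genes had 8 narrowed and 0 widened members among 32 with an eligible pair. The median length ratio of the list was 0.863. Over all protein-coding genes 13.6% were narrowed and 2.38% widened, and the median length ratio was 0.935. With so low a widened share over all genes, 0 widened members among 32 says little about this list. Ctsl, another cysteine protease gene, had 181 tags over 1618 bp in the knockout and 480 tags over 4505 bp in the wild type, a log2 ratio of -1.26 (-1.51 to -1.007), and its peak ended 1077 bp from the start in the knockout and 3632 bp in the wild type. Hexa, a lysosomal hexosaminidase gene, had 191 tags in the knockout and 426 in the wild type. Tfeb, the master regulator of lysosomal genes, had 317 tags in the knockout and 589 in the wild type. These 3 peaks held fewer tags in the knockout, as did every narrowed pair. The proton pump subunit genes Atp6v0d1 and Atp6v0a1 held 184 to 216 tags in the knockout and 330 to 370 tags in the wild type. The lipid genes Scd2 (a fatty acid desaturase), Srebf1 (a regulator of lipid synthesis) and Lrp1 (a lipoprotein receptor) held 124 to 259 tags in the knockout and 254 to 555 tags in the wild type. With limits of 2 and 0.5, 1 gene of the list was narrowed, and with at least 50% overlap 5. Over all pairs the narrowed number went from 1629 to 403 and to 1186 at these settings. The matching shares of all protein-coding genes were not computed.

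AP-1 and immediate early genes had 7 narrowed (26.9%) and 0 widened members among 26, against 13.6% and 2.38% of all protein-coding genes. Klf2, a transcription factor of quiescent immune cells, had 533 tags over 2261 bp in the knockout and 851 tags over 4620 bp in the wild type. Zfp36, whose product promotes decay of cytokine mRNAs, had 505 tags over 3377 bp in the knockout and 921 tags over 5644 bp in the wild type. Both were shorter downstream, with edge shifts of -2407 bp at Klf2 and -2287 bp at Zfp36. Fos, a subunit of AP-1, had 470 tags over 3300 bp in the knockout and 924 tags over 5454 bp in the wild type, and differed upstream of the gene, with an edge shift of -2115 bp. Dusp5, a phosphatase of ERK, had 451 tags in the knockout and 719 in the wild type. The antiproliferative gene Btg2 and the transcription factor genes Klf6 and Batf3 held 62 to 259 tags in the knockout and 196 to 478 tags in the wild type. The median length ratio of this list was 0.973, above the 0.935 of all genes. Klf2, Zfp36, Dusp5 and Klf6 overlapped an H3K9me3 peak, with 0 to 44 tags in the knockout and 0 to 31 tags in the wild type, and 3 members were counted without such pairs. With limits of 2 and 0.5, 3 genes were narrowed, and with at least 50% overlap 4. Over all pairs the narrowed number went from 1629 to 403 and to 1186 at these settings.

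**Figure D5:**
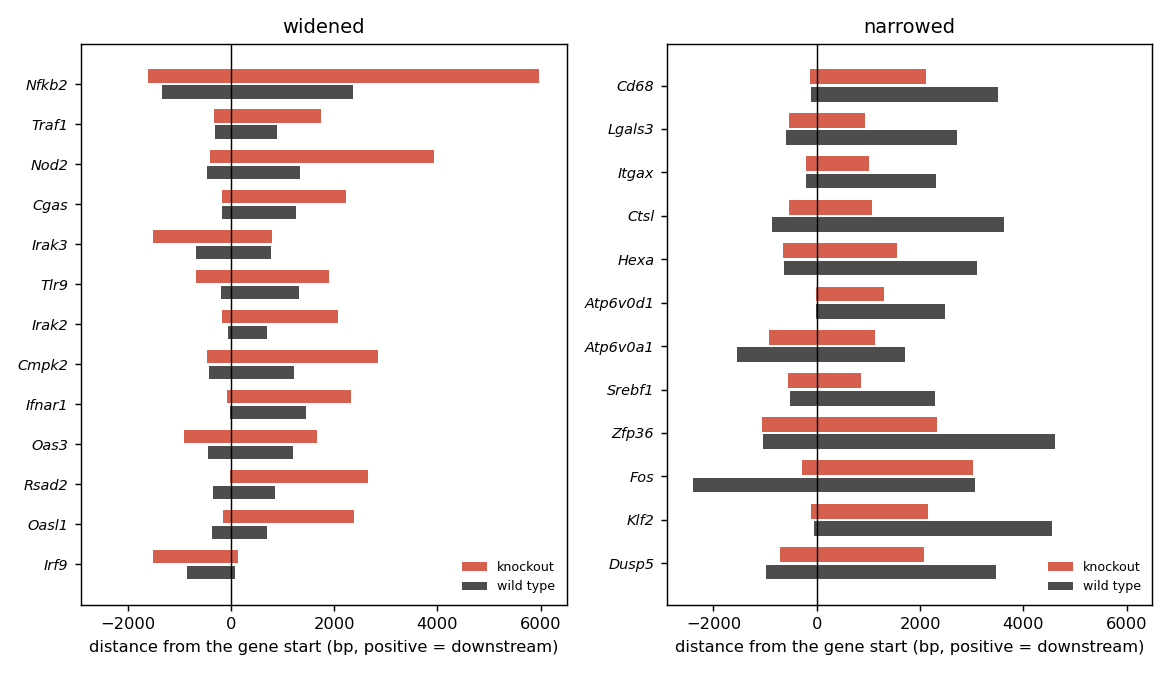
Extent of the H3K4me3 peak in the knockout (red) and the wild type (grey) around a listed gene start (0) for widened interferon, pattern recognition and NF-kB genes (left) and narrowed macrophage, lysosome and AP-1 genes (right). The axis gives bp from the start, positive downstream; Nod2 reached 3937 bp in the knockout and 1338 bp in the wild type, and Ctsl reached 1077 bp in the knockout and 3632 bp in the wild type.

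Cytoskeleton and nuclear envelope linker genes had 4 of 29 narrowed (13.8%) and 0 widened, against 13.6% and 2.38% of all protein-coding genes. Among them Lmna, the A-type lamin gene, had 174 tags over 1325 bp in the knockout and 400 tags over 4078 bp in the wild type, with a shift of -2595 bp at the edge upstream of its listed start. The lamin gene Lmnb2, the dynein heavy chain gene Dync1h1 and the filamin gene Flna held 74 to 334 tags in the knockout and 137 to 480 tags in the wild type. Histone methylation genes had 1 of 31 widened (3.23%) and 1 narrowed (3.23%, against 13.6% of all genes). The widened one was the demethylase gene Kdm4a, with 151 tags over 1766 bp in the knockout and 144 tags over 1059 bp in the wild type. The menin gene Men1, a part of MLL complexes, overlapped 2 narrowed peaks. The peak at its listed start had 228 tags in the knockout and 337 in the wild type. The other, with 205 tags in the knockout and 454 in the wild type, also overlapped Map4k2 and held only the start of Map4k2.

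Antigen presentation genes had 0 of 18 widened and 2 narrowed (11.1%), against 2.38% and 13.6% of all protein-coding genes. Ciita, the master regulator of MHC class II, had 88 tags over 1168 bp in the knockout and 201 tags over 2830 bp in the wild type. The peak over Rgl2 and Tapbp, which encodes the peptide-loading factor tapasin, had 518 tags in the knockout and 969 in the wild type. Housekeeping and ribosome genes had 3 of 29 widened (10.3%, against 2.38% of all genes) and 4 narrowed (13.8%). The widened ones included Rpl7 (in a peak that also reached Rdh10) and Gpi1, and the narrowed ones Rab7, Psmb2, Snrpd3 and Gpi1 at a different peak.

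Genes of other cell types had few eligible pairs. These lists are too short to set against the 2.38% widened and 13.6% narrowed of all protein-coding genes. Among mesothelial and fibroblast genes 1 of 5 was widened, Pdgfrb, a growth factor receptor, with 188 tags over 2648 bp in the knockout and 62 tags over 717 bp in the wild type. Another of the 5, Lrrn4, was narrowed, with 132 tags in the knockout and 245 in the wild type. B cell genes had 1 of 3 narrowed (Cd37) and dendritic cell genes 1 of 5 (Batf3). None of the 5 T and NK cell, 2 neutrophil, and 2 eosinophil and mast cell genes with an eligible pair was in either group. The part of other cells in the changed widths was not tested.

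Both widened regions with the most tags overlapped H3K9me3 peaks. A region outside protein-coding genes on chromosome 1 (171077279 to 171084755 in the knockout) had 1509 tags of H3K4me3 in the knockout and 1174 in the wild type, and 899 tags of H3K9me3 in the knockout and 687 in the wild type. At Fcgr3, an Fc receptor gene nearby, the H3K4me3 peak had 1253 tags over 6164 bp in the knockout and 937 tags over 3653 bp in the wild type, and H3K9me3 peaks had 703 tags in the knockout and 531 in the wild type. The part of this signal in the width was not tested.

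Apart from Nfkb2, the next widened peaks by tags held similar tags over different lengths. Zyx, which encodes the focal adhesion protein zyxin, had 887 tags over 6800 bp in the knockout and 904 tags over 3907 bp in the wild type. Il4ra, the interleukin 4 receptor gene, had 853 tags over 7472 bp in the knockout and 868 tags over 4898 bp in the wild type. At these 2, at Dusp7, a MAP kinase phosphatase gene, and at Rhoc, a GTPase gene, 2386 to 2861 bp were added downstream of the start. At Irf2bp2, with 897 tags in the knockout and 998 in the wild type, 1586 bp were added upstream. Tsc22d4, Zfp651 and the splicing kinase gene Clk3 held 708 to 762 tags in the knockout and 666 to 825 tags in the wild type.

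The highest length ratios belonged to smaller peaks. A region outside protein-coding genes on chromosome 8 (116559285 to 116562412) had a ratio of 4.44, with 199 tags in the knockout and 35 in the wild type, and H3K9me3 peaks with 484 tags in the knockout and 367 in the wild type. Rtp4, an interferon-inducible chaperone gene, had 187 tags over 2447 bp in the knockout and 42 tags over 643 bp in the wild type. Parp10, a mono-ADP-ribosyltransferase gene, had 455 tags over 4098 bp in the knockout and 202 tags over 1248 bp in the wild type, a log2 ratio of 1.32 (1.079 to 1.57). Hivep1 (a zinc finger transcription factor), the receptor gene Notch1 and a region outside protein-coding genes on chromosome 1 held 136 to 155 tags in the knockout and 37 to 59 tags in the wild type. Zfp865 had 105 tags in the knockout and 31 in the wild type, with H3K9me3 peaks of 353 tags in the knockout and 338 in the wild type. Its 2 H3K4me3 peaks met only at their ends, at 5030231 to 5032149 in the knockout and 5029641 to 5030239 in the wild type. Its values therefore compare largely separate stretches. The 8 widened peaks with the highest ratios all held more tags in the knockout. All of them but Parp10 reached 100 tags in the knockout alone, so this direction follows in part from the choice.

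The narrowed peaks with the most tags were long in the wild type. Plxnd1, a semaphorin receptor gene, had the longest, with 835 tags over 4766 bp in the knockout and 1349 tags over 8241 bp in the wild type, and was shorter at both ends. The region of Map3k11 and Pcnx3 had 995 tags over 5122 bp in the knockout and 1630 tags over 7796 bp in the wild type, and the knockout peak held 1 of its 2 gene starts. Ctdsp2, a phosphatase gene, had 639 tags over 2896 bp in the knockout and 1216 tags over 6883 bp in the wild type. Its upstream edges lay 7 bp apart and its downstream edge shifted by -3994 bp. Rnf213, an interferon-inducible ubiquitin ligase gene outside the gene lists, with 479 tags in the knockout and 1112 in the wild type, and Snx18, a sorting nexin gene, with 758 tags in the knockout and 1182 in the wild type, were likewise shorter downstream, by shifts of -3157 bp and -2364 bp. The co-repressor gene Tgif1, the translation kinase gene Mknk2, the MAP kinase phosphatase gene Dusp4, the secreted factor gene Metrnl and the retinoic acid receptor gene Rarg held 501 to 682 tags in the knockout and 979 to 1147 tags in the wild type. In the 12 narrowed peaks with the most tags the scaled log2 tag ratio lay between -1.065 and -0.491.

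The lowest length ratio, 0.130, was that of Tpst2, a tyrosine sulfotransferase gene. Its peak had 158 tags over 807 bp in the knockout and 771 tags over 6213 bp in the wild type, with an upstream edge shift of -22 bp and a downstream one of -5384 bp. Unscaled density was higher in the short peak, with 195.8 tags per kb in the knockout and 124.1 tags per kb in the wild type. The peak of Nkiras2 and Zfp385c had 95 tags over 688 bp in the knockout and 556 tags over 3833 bp in the wild type. The endoplasmic reticulum gene Wfs1, the dynein light chain gene Dynlt1a, the mitochondrial thioredoxin gene Txn2, the peak of Rpp38 and Acbd7, and the vesicle coat gene Ap3b1 held 30 to 170 tags in the knockout and 130 to 428 tags in the wild type.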

How the data were processed

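The deposited files were 1 peak list per library. The authors called peaks with MACS 1.4.2 at a p-value limit of 1e-05, with no control and a local background of up to 10000 bp, per the file headers. Duplicate tags were removed to 1 per position, per the file headers. CASAVA 1.4, Bowtie 0.12.8, MACS 1.4.2, DiffBind and mm10 were named, per the submitters' processing notes, without order or roles. Each deposited peak gave a tag count, a score (10 times the negative log10 of its p-value), a fold enrichment (a linear ratio) and its position. The filtered tags were 26748289 (H3K4me3, knockout), 29681491 (H3K4me3, wild type), 28586946 (H3K9me3, knockout) and 27727997 (H3K9me3, wild type). Tags were 49 bp long in the H3K4me3 knockout library and 50 bp in the others, and fragment sizes were estimated as 149 bp (knockout) and 142 bp (wild type) for H3K4me3 and as 71 bp (knockout) and 66 bp (wild type) for H3K9me3. Peak edges depend on depth and on that estimate.

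Pairing required 1 bp of overlap. Log2 tag ratios were scaled to filtered tags and have exact conditional binomial intervals, and shares have exact Clopper-Pearson intervals. Gene positions were read from RefSeq annotation on GRCm38.p6 (49997 genes, 21900 protein-coding), and gene starts and promoters from a RefSeq promoter table (17492 of the protein-coding genes, and 227 of 286 genes of widened and 1278 of 1634 genes of narrowed pairs). A gene was named where it overlapped the union of both peaks or, failing that, lay within 1000 bp. The text names the 12 members per group with the most tags, the 8 with the most extreme ratio, up to 4 per group from each of 17 gene lists, and 2 on each side of each limit, and a few members that this rule selects are not reported here. Further list members are named as examples. Members and lists were chosen with earlier results of these data known. Scripts ran in Python 3.11.15 with scipy 1.17.1, pandas 2.3.3, matplotlib 3.10.9 and numpy 2.4.6, and pairing was checked on simulated peaks.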

Additional observations from a re-analysis of the deposited data

How the results depend on the processing

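With 1 library per genotype, replicate variation is not measured and no replicate could be left out. No paired analysis was possible because each group has 1 library. The sign of the median log2 tag ratio held in all 20 comparisons with another setting for the 2 groups, and the other results are counts and shares without a sign. Of 95 comparisons in all, 49 values stayed within 1.5 times the main count or within the 95% interval of the main share or median, and 46 moved. The number of widened pairs was 548 with a minimum of 50 tags, 157 with 200 tags and 68 with limits of 2 and 0.5, and that of narrowed pairs 991 with 200 tags, 1020 with 100 tags in both peaks and 403 with limits of 2 and 0.5. Chosen after seeing the data, leaving out pairs that overlap an H3K9me3 peak gave 214 widened and 1297 narrowed pairs. The median log2 tag ratio of widened pairs was 0.63 with 50 tags, 0.27 with 200 tags, 0.28 with 100 tags in both peaks, 1.01 with limits of 2 and 0.5, 0.34 with 50% overlap and with centred ratios, 0.32 with a score of at least 100, 0.58 scaled to library totals and 0.33 unscaled. That of narrowed pairs was, in the same order of the first 5 settings, -0.79, -0.70, -0.68, -1.06 and -0.70, then -0.78 with merging within 500 bp, -0.81 with centred ratios, -0.66 scaled to library totals and -0.91 unscaled. The share holding a gene start was 32.5%, 61.1%, 56.9% and 30.8% in widened and 54.7%, 73.1%, 73.1% and 59.5% in narrowed pairs with 50 tags, with 200 tags, with 100 tags in both peaks and with limits of 2 and 0.5, and 58.7% and 71.2% with a score of at least 100. With an H3K9me3 score of at least 100, 11.4% of widened and 5.59% of narrowed pairs overlapped such a peak, and the share over all eligible pairs was not computed. List counts were recomputed as alternatives chosen after seeing the data, and the matching shares of all protein-coding genes were not computed. With limits of 2 and 0.5 the widened interferon and pattern recognition genes numbered 4 and 2 and the narrowed macrophage, lysosome and AP-1 genes 3, 1 and 3. With 50% overlap the interferon, macrophage, lysosome and AP-1 counts were 3, 4, 5 and 4, and without pairs that overlap an H3K9me3 peak the AP-1 count was 3. The cause of these moves was not tested, except that stricter limits leave fewer pairs by construction.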
